A study of Mus musculus with 12 samples.

Results

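An alternative 5′ splice site is one of several donor sites at the end of an exon that can be joined to the next exon, so that the choice lengthens or shortens the exon. The sites described here were 2302 alternative 5′ splice sites in 1144 linked events of the developing mouse lung, out of 123916 such sites and 661162 splicing features of all types in the deposited table. A site was kept when its percent spliced in (PSI, the percentage of the event's reads that use that site) was known in all 12 libraries, its coverage score was never the lowest grade, it had at least 10 reads in every library, and its mean PSI over the libraries lay from 5 to 95%. PSI was known in all libraries for 72890 sites, the coverage score left 56540, the read minimum left 56257, and the range of mean PSI left the 2302. The sites were thus selected on their mean PSI and their reads, which are given below as a description without a test. For 338 sites (14.7%) in 192 events the mean of the 6 embryonic or of the 6 postnatal libraries lay outside this range, so that they entered through the other libraries, and a difference between embryonic and postnatal libraries is no test in them. Whole lungs of wild-type C57BL/6 mice were collected in the embryo (E15.5 and E18.5) and at postnatal days 5 and 8 (P5 and P8), with 3 libraries at each time-point and no other treatment or allele. Each time-point drew its 3 replicates from a single litter, and both sexes were used, so litter and time-point cannot be told apart, and p-values measure the spread within litters.

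The spliceosome reads a 5′ splice site first through base-pairing with the U1 small nuclear ribonucleoprotein (snRNP), and the site is later handed over to the tri-snRNP that carries U6 and U5. When several donor sites lie close together, the strength of each site and the proteins bound near it, among them serine/arginine-rich proteins and hnRNPs, set which is used. The choice can add or remove amino acids, shift the reading frame or alter an untranslated region. Around birth the lung passes from fluid-filled growth to air breathing, and its epithelium and capillaries mature.

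The counts over the 16152 genes that the authors kept summed to between 41337443 and 53901957 reads per library. The pulmonary genes *Sftpc*, *Nkx2-1*, *Epcam*, *Pecam1*, *Cdh5* and *Col1a1* were expressed in every library. *Aqp5*, a gene of alveolar type 1 cells, was at 0.662 to 1.59 CPM (counts scaled to the library's mapped reads, as deposited) in the 6 embryonic libraries and 141.8 to 182.6 CPM in the 6 postnatal ones. The 9 thymus genes examined summed to 189.1 CPM in P8 replicate 1, 364.2 CPM in P8 replicate 2 and 19.5 CPM in E15.5 replicate 2, against 0.479 to 17.7 CPM in the other 9 libraries. In 5 of these 9 libraries *Ptcra*, the pre-T-cell receptor chain, was at 0. The 4 heart muscle genes *Myh6*, *Myl7*, *Nppa* and *Tnnt2* summed to 583.0 and 643.9 CPM in E15.5 replicates 1 and 2 and to 12.8 to 192.2 CPM elsewhere. The liver genes *Alb* and *Apoa1* summed to 81.2 CPM in P8 replicate 2 and 26.3 CPM in P8 replicate 3. Elsewhere they summed to 0.555 to 8.41 CPM. The part of these tissues in the splicing differences was not tested. In whole lungs, fewer cells of a type, less RNA per cell and another choice of donor within cells cannot be told apart.

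Most events were a choice between a pair of donors. The annotation listed 2 sites for 542 events, 3 for 310 and 4 or more, up to 15, for 292. In use, however, 1042 of the 1144 events had exactly 2 sites within the range of mean PSI, 49 had 3, 6 had 4 and 47 had 1. Since the sites of an event share its reads, a rise of one is a fall of the others: in all 539 events annotated with 2 sites, both kept, the PSI values summed to 100 within 1 percentage point in every library. Sites are therefore not independent of each other, and events are counted beside them. The minor sites, with a mean PSI from 5 to under 25%, made up 35.8% of all sites, the sites from 25 to 75% 30.7% and the sites above 75% 33.5%. At the edges of the rule, 143 sites had a mean PSI from 5 to 6% and 136 from 94 to 95%, while 163 sites just outside had 4 to under 5% and 152 had over 95 to 96%.

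Donor use in a library rested on a median of 79 reads per site, with quartiles of 48 and 140.0 and a range from 10 to 2701. At least 50 reads in every library were found for 1001 sites, and 302 sites fell below 20 reads in at least 1 library. The median SD of PSI within a time-point was 5.57 percentage points. Libraries of the same time-point differed by a median of 5.18 to 7.44 percentage points per site over the 12 pairs of replicates, with a median of 6.14. Libraries of E18.5 and P5 differed by 6.16 to 7.58 over 9 pairs, those of P5 and P8 by 5.71 to 6.27, and those of E15.5 and P8, the farthest apart in time, by 6.65 to 8.33 with a median of 7.34. These ranges all overlapped with that of littermates. E15.5 replicate 2 stood apart from the other libraries in the number of sites at exactly 0 or 100%, with 17.8% of the sites against 3.48 to 9.51% in the others. Wide spread among replicates was also found: 118 sites (5.13%) in 63 events spanned at least 50 percentage points within a time-point, compared with 3.56% of alternative 3′ splice sites, 2.13% of alternative exons and 0.427% of retained introns. The median depth of these 118 sites was 41 reads, against 81 in the rest.

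Differential splicing between time-points was first called by a minimum value (MV), the size of change that the reads of 2 time-points exceed with a probability of 0.95, and an MV of at least 10 percentage points was required. From E15.5 to E18.5, 9 of the 2302 sites in 5 events were called, where 0.257% of the 13981 features of all 4 types were. Of these, 4 rose and 5 fell (0.0858% and 0.172% of all features). From E18.5 to P5, 11 sites in 7 events were called, with 1.2% of all features, and 4 rose while 7 fell (0.772% and 0.429%). P5 to P8 gave 5 sites in 3 events against a background of 0.107%, of which 2 rose and 3 fell (0.0572% and 0.0501%). E15.5 to P8 gave 10 sites in 6 events against 1.52%, with 5 rising and 5 falling (0.908% and 0.608%). The MV matches libraries by replicate number; over all 9 pairs of libraries 7, 9, 2 and 8 sites were called in these comparisons, beside 0.122%, 1.04%, 0.0715% and 1.3% of all features. In all, 33 sites in 19 events were called in at least 1 of these comparisons, or 1.43% of the sites, while 2.49% of all features were. In alternative exons the share called was 2.63% from E18.5 to P5 and in alternative 3′ splice sites 0.244%, beside 0.478% here. The difference in share between event types was not tested.

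**Figure D1:**
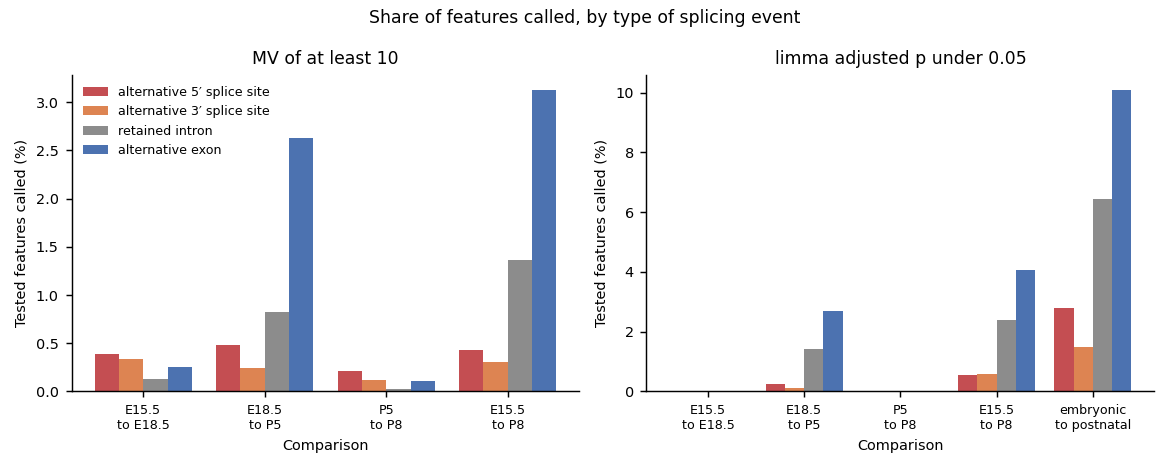
Percentage of tested features called in each comparison (x axis) for 4 types of splicing event (colours), by the MV of the PSI difference (left) and by limma (right). Alternative 5′ splice sites stayed at or below 0.478% by MV and reached 2.78% by limma for embryonic against postnatal libraries, where alternative exons reached 10.1%.

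A test over replicates was made with limma on the log2 ratio of a site's reads to the reads of the event's other sites (log2 odds), in 1 fit of all 12 libraries over the 13981 features. No site passed an adjusted p of 0.05 from E15.5 to E18.5 (0.0143% of all features did) or from P5 to P8 (0% did). An unadjusted p under 0.05 was found in 184 and 77 sites, or 7.99% and 3.34%, where 9.36% and 4.12% of all features had one. From E18.5 to P5, 3 sites rose and 3 fell in 3 events (1.32% of all features passed, 0.858% upward and 0.465% downward), and 13 sites in 8 events were called from E15.5 to P8 (2.2%). Both sets include sites that entered through the embryonic or the postnatal libraries alone, in which the call is no test. A last contrast set the mean of P5 and P8 against the mean of E15.5 and E18.5. It is named "for birth" below, though no library was taken at birth. This comparison of the 6 postnatal with the 6 embryonic libraries called 64 sites in 36 events, or 2.78% of the sites, with 5.84% of all features. Of the sites, 30 rose and 34 fell (3.58% and 2.27% of all features). Of the 64, 28 in 16 events were among the sites that entered through the embryonic or the postnatal libraries alone, and 36 in 21 events had both means between 5 and 95%. The interval that spans birth, E18.5 to P5, held the largest adjacent change in mean PSI in 33 of these events, which the contrast that called them favours. Over the most used sites of all 1144 events it held it in 39.8%. In 45 sites of 28 events the embryonic and postnatal libraries did not overlap at all, 1.95% of the sites against 4.43% of all features. Sites that entered through the embryonic or the postnatal libraries alone are among the 45, and their separation is no test. The count of 64 fell to between 33 and 39 when any of the 6 postnatal libraries was left out. Without the 3 libraries richest in thymus genes fewer sites were called. That fit lacked E15.5 replicate 2 and left P8 with replicate 3 alone. The part of thymus tissue in the lower count thus cannot be told from the loss of libraries. Among the called events with a gene symbol *Anapc11* alone kept its call there.

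Taking in each of the 36 events the called site that moved most, the difference in mean PSI had a median of 11.3 percentage points and ranged from 3.36 to 33.6. It reached 10 points in 23 events and 20 points in 6. In 32 of the events the most used site was itself called, and it was lower after birth in 23 and higher in 9. These counts include sites that entered through the embryonic or the postnatal libraries alone, so the split is no test of direction. Over all 1144 events the most used site was lower after birth in 54.9%, with a median difference of -0.741 points. The called sites had a median of 108 reads per library, against 78 in the rest.

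**Figure D2:**
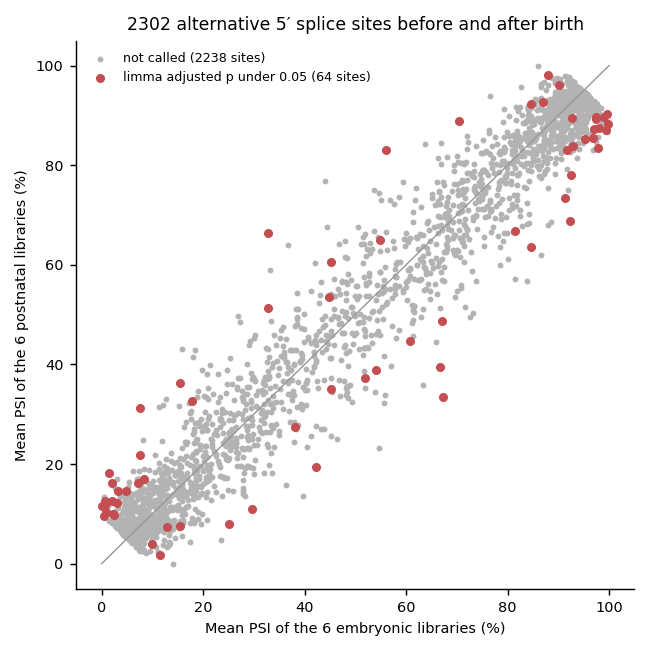
Mean PSI (%) of each of the 2302 alternative 5′ splice sites in the 6 embryonic libraries (x axis) and the 6 postnatal libraries (y axis), with the 64 sites called by limma in red and the line of equal use in grey. Most sites lie along the line, and the called sites sit on either side of it, by at most 33.6 percentage points, including 28 near the corners that entered through embryonic or postnatal libraries alone.

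Gene symbols were paired with 25 of the events, all from lists that the study drew from these same libraries by its own differential splicing test. A change in these sites is therefore not independent evidence, and for the other events neither a gene nor a position was used here. Of the 25 events, 18 were called by MV, 2 by limma alone and 5 by neither. Sites are named below by their number among the sites annotated for the event. Positions given are those of the whole host gene, in the mm10 build (GENCODE vM21), since the exon, intron or untranslated region around each donor was not looked up.

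Both calls, by MV and by limma, were made in *Huwe1*, *Anapc11*, *Asap1*, *Elof1*, *Tcaf1*, *Rbbp8*, *BC031181* and *Hadhb*, but mostly in different comparisons. Only *Huwe1* passed limma in the interval that its MV called, and the others passed for embryonic against postnatal libraries. In the interval of the MV call the limma adjusted p was 0.077 in *Anapc11*, 0.081 in *Elof1* (site 4) and 0.084 in *Asap1*. The named events are described by role, ubiquitin ligases first. *Huwe1* (chromosome X, 151800807 to 151935417, plus strand) encodes a large HECT-type ubiquitin ligase. Its site 1 of 3 was used at 19.2, 9.03 and 15.3% at E15.5, at 15.8, 13.6 and 19.3% at E18.5, at 28.2, 37.6 and 32.7% at P5 and at 38.8, 46.5 and 34.3% at P8. Every postnatal library was above every embryonic one. The site rose by 25.4 percentage points from E15.5 to P8 (MV 10), a log2 odds difference of 1.99 (SE 0.44, limma adjusted p = 0.038), and by 21 points between embryonic and postnatal libraries (adjusted p = 0.0089). The limma call for birth held in all 12 fits that left out 1 library and that from E15.5 to P8 in 2 of them, while the MV fell to 9 without replicate 2 of E15.5 or P8. The partner site 2 kept an MV of -10 to -12 whichever library was left out. Without the 3 thymus-rich libraries the limma adjusted p was 0.11.

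*Anapc11* (chromosome 11, 120598421 to 120608198, plus strand), the RING subunit of the anaphase-promoting complex, was read deeply, with 340 to 519 reads per library. Site 1 of 7 was at 49.5, 47.1 and 44.4% at E15.5 and at 44.8, 44.6 and 41.5% at E18.5. It was then at 63.5, 59.9 and 60.7% at P5 and at 64.2, 51.7 and 63.3% at P8, with no overlap between embryonic and postnatal libraries. From E18.5 to P5 it rose by 17.8 points (MV 11, and 11 over all 9 pairs of libraries). Between embryonic and postnatal libraries the log2 odds rose by 0.89 (SE 0.18, limma adjusted p = 0.012), and this call too held whichever library was left out and without the 3 thymus-rich libraries (adjusted p = 0.042), though not without the depth trend (0.073). Site 5 took the opposite course, falling by 15.2 points (adjusted p = 0.013). By PSI the event thus went from near-equal use of both donors to a majority for site 1 in every postnatal library. By share of raw reads, site 1 was at 49.3% and site 5 at 50.2% in P8 replicate 2.

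*Asap1* (chromosome 15, 64086857 to 64382919, minus strand), a GTPase-activating protein for Arf, had the largest difference in mean PSI between embryonic and postnatal libraries of the 36 called events. Site 1 of 2 was at 41.2, 24.1 and 39.4% at E15.5, 40.4, 31.8 and 19.9% at E18.5, 63.5, 45.2 and 69.8% at P5, and 78, 59.4 and 82.9% at P8. It was the minor site in all 6 embryonic libraries and the major site in 5 of the 6 postnatal ones. From E15.5 to P8 it rose by 38.5 points (MV 24, and 13 over all 9 pairs), and between embryonic and postnatal libraries by 33.6 points (log2 odds 2.11, SE 0.47, limma adjusted p = 0.021). The limma call was lost, at adjusted p values of 0.052 to 0.06, without E18.5 replicate 3, P5 replicates 1 or 3, or P8 replicates 1 or 3, and at 0.07 without the 3 thymus-rich libraries.

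*Vps37c* (chromosome 19, 10688735 to 10714627, plus strand), a subunit of the ESCRT-I sorting complex, was called by limma and by no MV. Its site 2 of 4 was used at 59.7, 56.7 and 59.3% at E15.5, 51.9, 71.4 and 37.2% at E18.5, 92.5, 81.4 and 82.6% at P5, and 77.8, 86.8 and 77.5% at P8. No postnatal library was as low as any embryonic one. The rise of 27.1 points (log2 odds 1.98, SE 0.48, limma adjusted p = 0.03) came at the expense of site 3, which fell by 17.1 points (adjusted p = 0.032), and of site 1, whose mean use was lower without passing the test. Leaving out a library other than replicate 2 of E15.5 or E18.5 ended the call of site 2, at adjusted p values up to 0.076.

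*Elof1* (chromosome 9, 22112989 to 22117172, minus strand), an elongation factor of RNA polymerase II, had 4 of its donors within the range of mean PSI, more than any other named event. Site 4 of 5 was at 42.2, 33.8 and 37.5% at E15.5, 51.6, 46.4 and 41.7% at E18.5, 14.3, 15.4 and 18.2% at P5, and 14.5, 26.1 and 27.7% at P8. It fell by 30.6 points from E18.5 to P5 (MV -13) and by 22.8 points between embryonic and postnatal libraries (limma adjusted p = 0.026), without overlap. Site 2 was at 0, 0 and 6.25% at E15.5, 0, 0 and 2.78% at E18.5, 12.7, 24.4 and 16.2% at P5, and 25.8, 22.5 and 7.92% at P8. Its embryonic mean lay under 5%, so this site entered through its postnatal libraries and its rise of 16.7 points is given as a description. The call of site 4 was lost without E18.5 replicates 1 or 2, any P5 replicate or P8 replicate 1 (adjusted p up to 0.067). The exon that carries these donors was itself rarely included, as given below, so the PSI values describe the minority of reads that join it.

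*Taf6*, a subunit of the general transcription factor TFIID, was called only from P5 to P8 (MV -10). Site 1 of 4 was at 59.1, 60.8 and 82.3% at P5 and at 38.3, 27.5 and 49% at P8, after 44.7, 54.7 and 49.9% at E15.5 and 76.8, 49.9 and 48.3% at E18.5. The call was lost over all 9 pairs of libraries (MV -3) and without replicates 2 or 3 of either time-point (MV -8).

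*Tcaf1* (chromosome 6, 42668002 to 42710088, minus strand), which encodes a factor bound to TRP ion channels, used site 1 of 3 at 35.9, 23.6 and 43% at E15.5, 26.9, 33.1 and 34.3% at E18.5, 52, 60.3 and 57.8% at P5, and 42.8, 41.4 and 53.4% at P8. The 3 libraries of P5 lay above all 6 embryonic ones, whereas P8 overlapped with E15.5. From E18.5 to P5 the site rose by 25.2 points with an MV of 16, and the MV stayed at 16 or 17 whichever library was left out. Its limma call for birth (log2 odds 1.12, SE 0.29, adjusted p = 0.039) was lost in every leave-one-out fit but that without E15.5 replicate 3, at adjusted p values up to 0.098.

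*BC031181* used site 3 of 5 at 56.6, 57.3 and 53.6% at E15.5, 60.7, 41.3 and 42.6% at E18.5, 35.1, 41.2 and 41% at P5, and 30.8, 37.7 and 37.5% at P8. The site fell by 20.5 points from E15.5 to P8 (MV -12, and -12 over all 9 pairs) on 278 to 663 reads per library. All 6 postnatal libraries lay below all 6 embryonic ones, but the nearest pair stood at 41.2% and 41.3%. For birth its limma adjusted p was 0.039, which rose to as much as 0.096 and was kept only without E18.5 replicate 2 or 3.

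**Figure D3:**
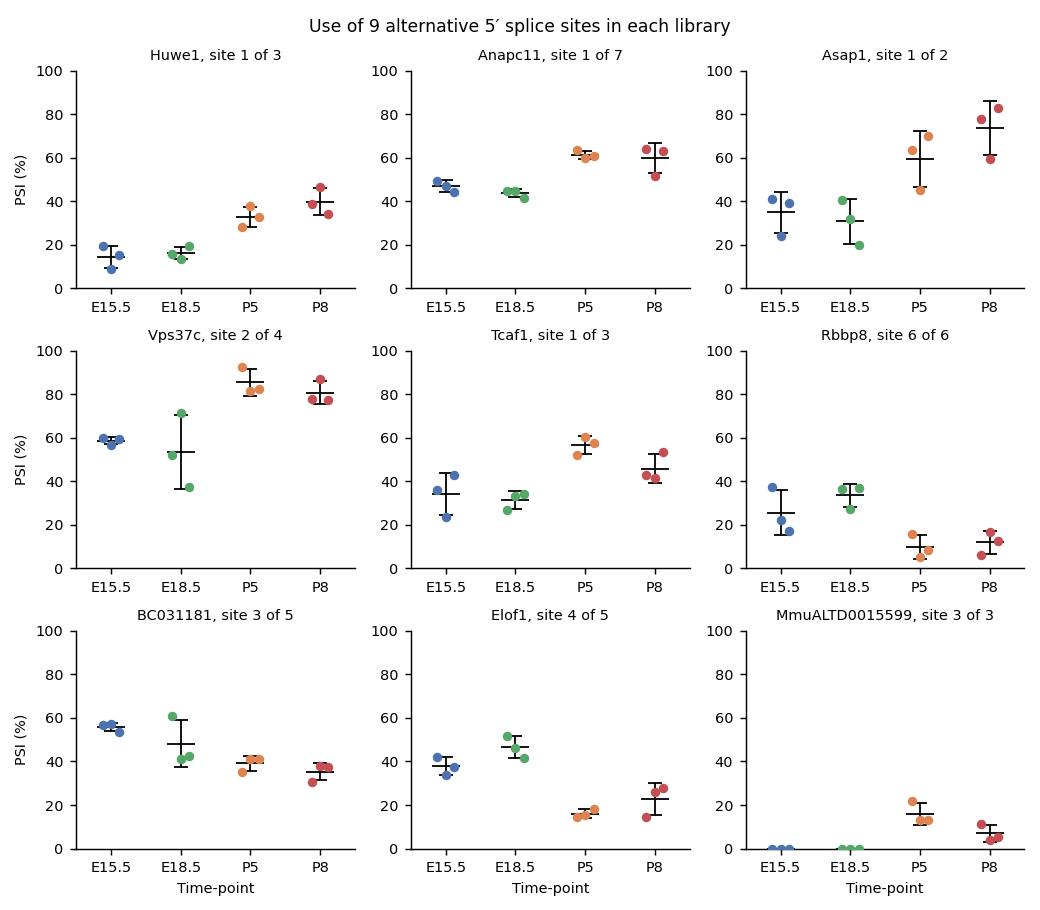
PSI (%) of 9 alternative 5′ splice sites at the 4 time-points, with each library as a point and the mean ± SD of the 3 replicates as a bar. In *Huwe1*, *Anapc11*, *Asap1*, *Vps37c* and the event MmuALTD0015599 all postnatal libraries lie above all embryonic ones, and in *Rbbp8*, *BC031181* and *Elof1* all lie below, while in *Tcaf1* the time-points P8 and E15.5 overlap. The site of MmuALTD0015599 entered through its postnatal libraries, so its separation is a description without a test.

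Genes of DNA repair were represented by 3 events. *Rbbp8*, which encodes the end-resection factor CtIP, used site 6 of 6 at 37.3, 22.2 and 17.3% at E15.5, 36.4, 27.3 and 36.8% at E18.5, 15.9, 5.26 and 8.54% at P5, and 6.35, 16.9 and 12.7% at P8. The postnatal libraries were all below the embryonic ones. The site fell by 23.6 points from E18.5 to P5 (MV -10, but -7 over all 9 pairs and -9 without replicate 3 of E18.5 or P5), and its partner site 3 rose by 23.1 points. Between embryonic and postnatal libraries the limma adjusted p was 0.037, which was kept only without E15.5 replicate 3, P5 replicate 1 or P8 replicate 2 and otherwise rose to at most 0.098. In *Mre11a*, a nuclease of the double-strand break response, site 1 of 3 was at 63.6, 67.2 and 70.9% at E15.5, 45, 46.9 and 47.1% at E18.5, 64, 50 and 64.5% at P5, and 92.3, 85.7 and 81.1% at P8. Its replicates were tight at E18.5 and it passed neither test (largest MV 5, in the partner site), on a median of 42 reads. *Fen1*, the flap endonuclease, used site 3 of 6 at 35.7 to 54.6% at P8 against 56.7 to 72.1% at E15.5 and reached an MV of -9, short of the threshold.

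*Ccnl1*, which encodes cyclin L1, a regulator of splicing kinases, used site 1 of 2 at 44, 46.4 and 51.3% at E15.5 and at 72.7, 70.5 and 83.3% at P8. E18.5 and P5 lay between them or overlapped, at 54, 49.1 and 65.6% and at 64.3, 34.9 and 59.8%. The MV of 10 from E15.5 to P8 was 8 over all 9 pairs and 9 without replicate 3 of either time-point. *D16Ertd472e* was called in adjacent intervals on different sites. Site 1 of 6 fell from 38.6, 46.7 and 41.9% at E15.5 to 12.9, 16.1 and 12.5% at E18.5 (MV -10, and -9 without replicate 2 of either). Site 6 was at 64.5, 60.7 and 72.5% at E18.5 and 37.3, 23.8 and 29.4% at P5 (MV -14, and -14 over all 9 pairs).

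The calls of *Pbxip1* and *E430018J23Rik* rested on the pairing of replicates. *Pbxip1*, which encodes a partner of PBX homeodomain proteins, used site 1 of 2 at 29.2, 70 and 2.86% at E15.5 and at 75.4, 89.6 and 61% at P8, on a median of 37 reads. Its MV of 10 became 0 over all 9 pairs and 8 without replicates 1 or 3. In *E430018J23Rik*, site 1 of 4 was at 16.7, 0 and 7.89% at E15.5 and at 66.7, 34.1 and 36.4% at P8, with an MV of 15 that became 6 over all 9 pairs. Replicate numbers link no animals between time-points. Over all 9 pairs 20 of the 33 called sites kept an MV of at least 10, with at least 1 site called in 11 of the 19 events.

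The deposited PSI and the raw reads disagreed in some events. The PSI is computed from reads corrected for how well each junction can be mapped, and for 88.7% of the sites it lay on average within 2 percentage points of the site's share of the event's raw reads. In 80 sites (3.48%) the 2 measures differed by at least 10 points on average, and in 28 by at least 20. The reads deposited beside the PSI always summed to the event's raw total within 1 read, so that the precision used for the MV is that of the total and not of the few reads on the site. *Amotl1*, a member of the angiomotin family of cell junction proteins, showed this most plainly. Its site 2 of 3 had a PSI of 0, 74.1 and 0% at E15.5, 54, 0 and 0% at E18.5, 40.6, 0 and 30.6% at P5, and 62, 39.2 and 66.9% at P8. The same libraries gave raw shares of 0, 11.2 and 0%, 6.32, 0 and 0%, 2.72, 0 and 1.64%, and 8, 2.8 and 6.99%. The MV of 14 from P5 to P8 became 0 on raw reads and 0 over all 9 pairs.

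*Ahcyl1*, whose product binds the inositol trisphosphate receptor, used site 2 of 2 at 56.8, 44.1 and 40.4% at P5 and at 24.1, 17.3 and 0% at P8 (MV -22). The raw shares behind these were 3.61, 2.2 and 1.9% and 0.901, 0.595 and 0%, on which the MV was 0. In *Gigyf1*, which encodes an adaptor with a GYF domain, site 1 of 2 was at 32.5, 44.7 and 29.6% in the E18.5 libraries and at 0% in all 3 P5 libraries (MV -18). Its raw shares at E18.5 were 6.06, 9.09 and 8.33%, and the MV on raw reads was 0. *Hadhb*, the beta subunit of the mitochondrial trifunctional protein of fatty acid oxidation, kept its direction on both scales. Site 1 of 9 was at 79.1, 69.4 and 67.2% at E18.5 and 55.2, 39.1 and 39% at P5 by PSI (MV -11, but -5 over all 9 pairs and -9 without replicates 2 or 3 of either time-point), and at 60.6, 47.9 and 45.5% and 33.3, 20.7 and 20.5% by raw share. For birth its limma adjusted p was 0.044, kept only without E15.5 replicate 1 or P8 replicate 1. Of the 33 called sites, 25 kept an MV of at least 10 on raw reads.

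**Figure D4:**
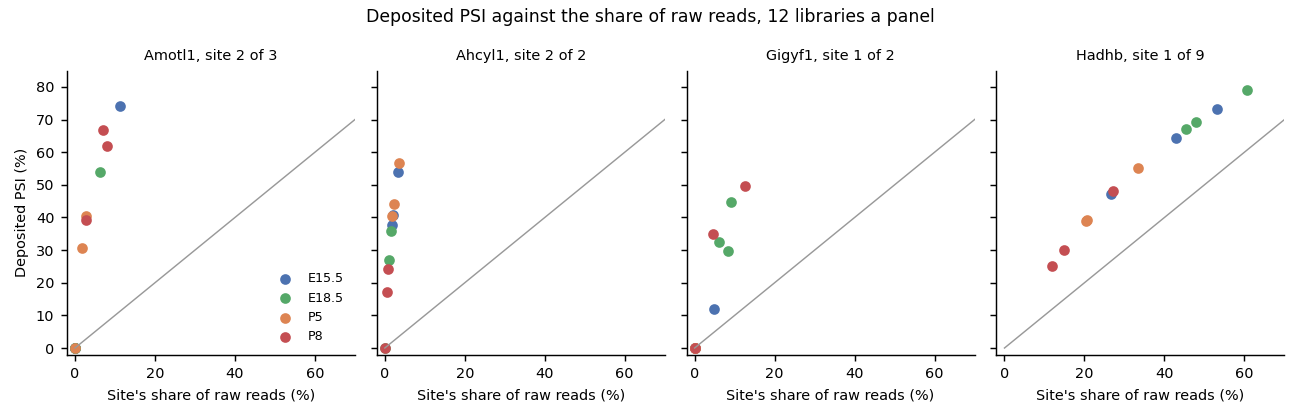
Deposited PSI (%) against the site's share of the event's raw reads (%) for 4 sites, with 1 point per library coloured by time-point and the line of equality in grey. In *Amotl1*, *Ahcyl1* and *Gigyf1* raw shares of at most 12.5% stand beside PSI values up to 74.1%, whereas *Hadhb* follows a curve above the line over the whole range.

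Among events without a gene symbol, MmuALTD0007037 was the only one called by MV. Its site 2 of 3 was at 11.9, 9.67 and 10.6% at E15.5 and at 48.5, 53.1 and 38.2% at E18.5, a rise of 35.9 points (MV 10, but 8 without replicate 2 of either time-point). The following 4 events were chosen after their values were seen, as examples of the 26 events without a symbol that limma called for birth. The first pair entered through their postnatal libraries, with means over all 12 of 5.75% and 5.04%, and is described without a test. In MmuALTD0015599, site 3 of 3 was at 0% in all 6 embryonic libraries and at 21.9, 13.1 and 13.2% at P5 and 11.5, 4.01 and 5.24% at P8. Site 1 of 2 in MmuALTD0013844 was at 0, 0 and 0% at E15.5, 1.31, 1.33 and 0% at E18.5, 5.25, 15.2 and 8.06% at P5, and 8.62, 8.42 and 12.3% at P8.

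The other pair was read more deeply. MmuALTD0008862, with 1083 to 1568 reads per library, used site 2 of 2 at 44.1, 43.6 and 38.6% at E15.5, 46.3, 47.5 and 51% at E18.5, 36.5, 29.2 and 35.9% at P5, and 35.2, 36.8 and 36.4% at P8. It fell by 10.2 points between embryonic and postnatal libraries (log2 odds -0.62, SE 0.12, limma adjusted p = 0.0089). MmuALTD0014340, with 294 to 702 reads, used site 3 of 3 at 64.6, 64.2 and 60.7% at E15.5, 61.4, 57.4 and 56.6% at E18.5, 40.8, 45.6 and 48.2% at P5, and 40.6, 51.5 and 41.2% at P8 (adjusted p = 0.0076). Without the depth trend the adjusted p of these deeply read events was 0.18 and 0.059. In both, no embryonic library overlapped with a postnatal one and the calls held in all 12 leave-one-out fits. Without the 3 thymus-rich libraries the adjusted p was 0.11 in MmuALTD0008862 and 0.040 in MmuALTD0014340.

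The remaining named events passed limma alone or no test. *Nckap5l* site 1 of 2 was at 21.9, 0 and 16.2% at E15.5, 0, 4.55 and 3.11% at E18.5, 12.5, 37.1 and 22.2% at P5, and 31.6, 43.5 and 40% at P8, on 19 to 41 reads. Its limma adjusted p for birth was 0.039, kept only without E15.5 replicate 1 or 3. *Paxbp1*, *Zfp219* and *Dus1l* were not called, with MVs of at most 5 in size in any comparison. *Paxbp1* site 1 of 3 ranged from 51.1 to 82.9% in the embryonic libraries and from 5.64 to 53.6% in the postnatal ones, which overlapped through P8 replicate 2 and E18.5 replicate 1. *Zfp219* site 3 of 3 lay between 71.4 and 100% before birth and between 41.4 and 83.9% after it. *Dus1l* site 1 of 4 overlapped fully, from 30.3 to 78.2% before birth and from 57.5 to 76.4% after it.

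How often the host exon itself was joined was a readout that the choice of sites did not use. The third quality score matched the share of reads that join the event's sites and do not skip the exon, with a median difference of 0.0989 percentage points. It was at 100% in every library for 643 events (56.2%), below 90% in at least 1 library for 145 and below 25% in at least 1 for 24. In most events, then, every junction read included the exon. *Elof1* was the exception among the named events, as its host exon use lay between 13.8 and 40.5%. *Ccnl1* was at 35.4 to 71.4% and *Zfp219* at 52.1 to 79.8%, and the other named events stayed at or above 84.9%.

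The level of the host genes was compared over the same intervals with edgeR on the gene counts. From E18.5 to P5, 3 of the 25 host genes passed an absolute log2 fold change of 1 with an FDR under 0.05 (26.8% of the 15994 genes tested did): *Pbxip1* rose and *Fen1* fell among them. From E15.5 to P8, 4 genes passed (32.3% of all), the fall of *Mre11a* included, 3 genes passed for birth (29.5%), and none passed from E15.5 to E18.5 (3.04%) or from P5 to P8 (2.96%). By FDR alone 1, 18, 3 and 18 host genes passed from E15.5 to E18.5, E18.5 to P5, P5 to P8 and E15.5 to P8, where 21.5%, 71.1%, 18% and 76.3% of all genes did. From E18.5 to P5, *Pbxip1* rose from 45.1 ± 1.63 to 91.5 ± 0.636 CPM (mean ± SD, n = 3 each) and *Fen1* fell from 2.17 ± 0.679 to 0.657 ± 0.0875 CPM. In E18.5 replicate 3 the *Fen1* event alone had 313 reads, more than the gene count behind its 2.67 CPM there. The CPM of *Fen1* is thus not the full level of the gene. For birth, 12 host genes were lower and 7 higher in postnatal than in embryonic libraries, where 41% and 40.1% of all genes were (81.1% in either direction). Of the 8 genes called by both MV and limma, 6 also differed in level. The log2 fold change for birth was 0.10 (SE 0.05, edgeR FDR = 0.068) in *Asap1*, -0.30 (SE 0.05, FDR = 4.7e-05) in *Anapc11*, -0.01 (SE 0.06, FDR = 0.82) in *Elof1* and -0.45 (SE 0.12, FDR = 0.0053) in *Huwe1*, whose level varied widely at E15.5 (292.2 ± 91.1 CPM). It was 0.59 (SE 0.05, FDR = 3.2e-07) in *BC031181*, -0.59 (SE 0.04, FDR = 6.8e-08) in *Rbbp8*, -0.48 (SE 0.07, FDR = 3.3e-05) in *Tcaf1* and 0.64 (SE 0.21, FDR = 0.012) in *Hadhb*. *Hadhb* varied widely among replicates at P8, at 175.0 ± 93.3 CPM against 89.9 ± 16.2 at P5. Annotated genes on the opposite strand overlap *Asap1*, *Fen1*, *Taf6*, *Mre11a* and *Zfp219* among others. Strand-aware counting is not stated, so the effect of this overlap on the counts is not known.

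The genes listed for recognition or choice of 5′ splice sites were lower after birth almost throughout. The list was chosen with earlier results of these data known, so its counts are a description, and no set test was made. The study itself had reported lower *Hnrnpa1* at P5 than at E18.5 in these libraries. Of 27 listed genes, 26 fell and none rose from embryonic to postnatal libraries (edgeR FDR under 0.05), with a median log2 fold change of -0.74, where 41% of all genes fell and the median was -0.01. All 14 genes of the U1 snRNP and its partners fell, with a median of -0.73. *Snrnp70*, the U1-70K protein, averaged 252.0 ± 3.78 and 197.4 ± 11.3 CPM in the E15.5 and E18.5 libraries (mean ± SD, n = 3 each) and 97.9 ± 9.11 and 117.8 ± 11.4 CPM in those of P5 and P8 (log2 fold change for birth -0.98, SE 0.05, FDR = 1.2e-09). *Snrpa*, the U1-A protein, went from 87.4 ± 1.9 and 72.3 ± 2.69 CPM to 31.8 ± 3.56 and 36.1 ± 1.72 CPM (log2 fold change -1.15). The U1 partners *Tia1* and *Luc7l3* fell by 0.95 and 0.87 on the log2 scale. Smaller changes were found in *Luc7l2* and *Prpf40b*, at -0.35 and -0.31.

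Among the 6 regulators of donor choice 5 fell. *Hnrnpa1*, which favours distal donors, averaged 987.6 ± 8.8 and 873.6 ± 62.1 CPM before birth and 341.3 ± 23.5 and 308.7 ± 13.9 CPM after it (log2 fold change for birth -1.44, SE 0.05, edgeR FDR = 4.7e-11). *Srsf1*, which favours proximal donors, fell over the same time from 530.6 ± 5.46 and 461.8 ± 61.2 CPM to 222.1 ± 9.96 and 205.5 ± 11.4 CPM (log2 fold change -1.13). Both members of this antagonistic pair were thus lower. The helicase gene *Ddx5* was the exception, at -0.08 (SE 0.05, FDR = 0.16). All 7 tri-snRNP genes fell, from *Lsm2* at -1.35 to *Snrnp200* at -0.29. Most of the drop lay between E18.5 and P5, where 25 of the 27 were lower (35.7% of all genes were), while 9 were lower between the embryonic time-points (9.87%). Between P5 and P8, 1 was higher (9.75%) and 0 lower (8.21%). Without scaling beyond library size all 27 were lower for birth, with a median of -0.81, and with the size factors of DESeq2 26 were, with a median of -0.71.

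**Figure D5:**
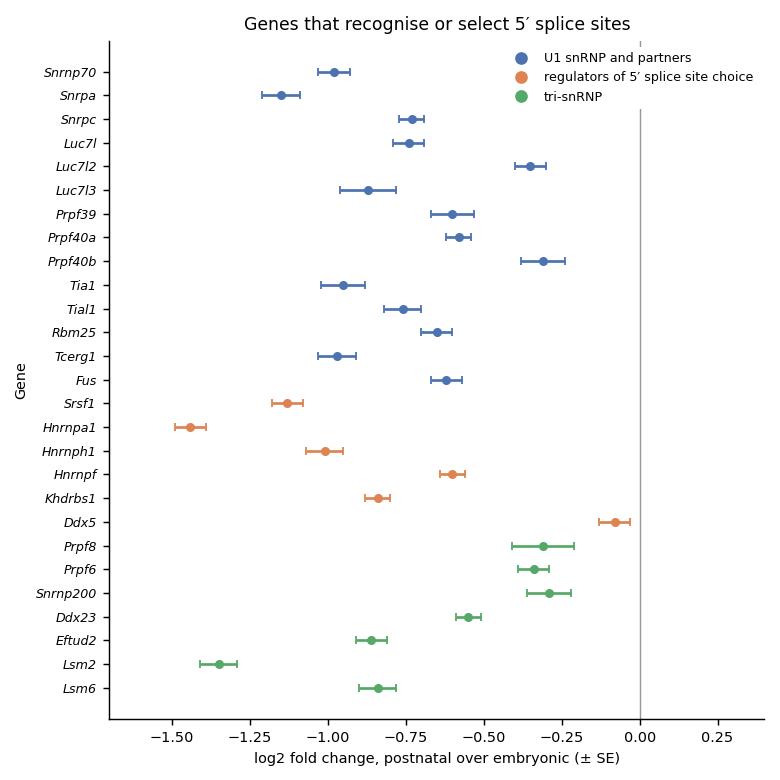
Log2 fold change ± SE of 27 genes that recognise or select 5′ splice sites, postnatal over embryonic libraries, from the edgeR fit of 12 libraries. Every gene lies below 0, from -0.08 in *Ddx5* to -1.44 in *Hnrnpa1*, with *Ddx5* the gene that did not pass an FDR of 0.05.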

How the data were processed

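RNA of whole lungs was sequenced in 12 libraries, 3 per time-point. As the study states, VAST-TOOLS was run on the reads against mm10 event annotations, which gave the deposited PSI (percent) and a quality string whose scores include read counts. The authors mapped reads with TopHat2 2.1.1 and Bowtie2 2.3.4 and counted genes with HTSeq 0.10.0. The deposited counts of 16152 genes are raw, and the deposited CPM scale each count to the mapped reads of its library.

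The sites, gene lists and tests were chosen with earlier results of these data known. MV was recomputed from 2000 Beta draws per library (prior of 1 read), with libraries matched by replicate number (how the tool matched replicates is not given in the sources used here). It was computed, like limma 3.58.1 (pseudocount 0.5 reads, variance trend on depth, Benjamini-Hochberg over 13981 features), for all features under the same rule. edgeR 4.0.16 (TMM, at least 1 CPM in 3 libraries, 15994 genes) tested the counts. The MV, limma and edgeR steps were run on simulated data, with sites drawn independently and PSI changes larger than most called here. The outcome is not given, and these runs are no measure of error in the linked sites. The named sites were those called by MV with a gene symbol, the up to 2 largest rises and falls called by MV without one (a single event), those called by limma alone and those not called, with their host genes. Some of these sites and genes are not reported here, though they stay in the counts. Symbols came from the study's own event lists, whose PSI differences were not used. No sequence is shown, as coordinates of the events were not used here. Alternatives are listed in the closing section.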

Additional observations from a re-analysis of the deposited data

How the results depend on the processing

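MV calls depended on the cut and on the number of libraries. In the order E15.5 with E18.5, E18.5 with P5, P5 with P8 and E15.5 with P8, the 9, 11, 5 and 10 called sites became 21, 33, 8 and 41 at an MV of at least 5 and 2, 0, 2 and 2 at an MV of at least 20. A minimum of 20 reads left 5 in the first comparison, and a minimum of 50 reads left 2, 6 and 5 in the first, second and last. The 5 calls between P5 and P8 became 2 over all 9 pairs (no replicate block) and 1 on raw reads. Leaving out a library removed its matched pair and raised the calls to 20 to 34, 27 to 41, 14 to 21 and 35 to 50. Of the 33 called sites, 19 stayed called whichever library was left out. Without the 3 thymus-rich libraries the calls were 20 in the first comparison, 138 between P5 and P8 and 219 in the last, where fewer matched pairs were left.

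By limma, the 64 sites called for birth were 33 to 60 with a library left out and 15 without the thymus-rich libraries, which left 1 library at P8, assumed to vary like the rest. Between E18.5 and P5 the 6 called sites became 3 with the replicate block, 10 with a pseudocount of 2 reads, 15 on the arcsine scale, 18 with read weights, 2 without the trend, 15 at 50 reads and 0 to 13 with a library left out. Between E15.5 and P8 the 13 became 23 with a pseudocount of 2, 28 with weights, 8 at 50 reads, 6 without the thymus-rich libraries and 5 to 24 with a library left out. Between E15.5 and E18.5 the 0 became 2 without the thymus-rich libraries and 0 to 6 with a library left out, and between P5 and P8 0 to 2. The causes were not tested.

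Same-numbered libraries did not deviate together (correlations of PSI deviations from -0.09 to 0.06 over 18 pairs), so no pairing by number was seen in PSI. With the replicate block 47 sites were called for birth.

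Against 0, 3, 0, 4 and 3 host genes by both cutoffs, FDR alone gave 1, 18, 3, 18 and 19 in the 4 comparisons and for birth. With a library left out they were 0 to 0, 3 to 3, 0 to 1, 4 to 5 and 3 to 4, and the 5′ splice site genes were 5 to 12, 24 to 26, 0 to 3, 24 to 26 and 26 to 27. The 1 such gene called between P5 and P8 became 2 by library size alone, 2 by DESeq2 and 0 without the thymus-rich libraries, an alternative added for the genes after the data were seen. No result changed direction in the alternatives run. The effect of depth on the MV calls was examined only through the read minimums above.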
